A study of Sus scrofa with 5 samples.

Results

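Amino acid transporter genes were followed in porcine embryonic stem cells (pESCs) and in the blastoids made from them. The members were all genes whose symbols begin with SLC1A, SLC3A, SLC6A, SLC7A, SLC36A, SLC38A or SLC43A, which gave 59 of 30029 genes in the blastoid data and the same 59 symbols, with 186 transcripts, among 29886 genes in the pESC data. They comprised 7 SLC1A, 2 SLC3A, 18 SLC6A, 14 SLC7A, 4 SLC36A, 11 SLC38A and 3 SLC43A genes. SLC7A6OS was taken in by its name only, since it is a neighbour of SLC7A6 and not a carrier. The series holds 3 bulk RNA-seq libraries of pESCs and 2 single-cell RNA-seq libraries of blastoids collected on day 6. The bulk libraries are named IVFP25, PA_4P7 and PAP25. These names may mark different origins (IVF or PA) and passages (P25 or P7), but the labels do not explain them. According to the methods, the pESCs came from parthenogenetic pig blastocysts and grew on mitomycin C-treated mouse embryonic fibroblasts in 4FIXY medium, which contains activin A, IGF1, IL-6, its soluble receptor, XAV939, IWR1 and Y-27632. The blastoids were pESC aggregates moved into iBlastoid medium in 3D culture. They were picked by hand for a cavity and for epiblast-like and trophectoderm-like compartments. Both media contain non-essential amino acids and a stable glutamine dipeptide. The labels do not say whether the libraries of a kind were separate cultures, so p-values measure only the spread between these libraries, which may be technical.

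Amino acids do not cross membranes unaided, and each carrier family moves a group of them by its own mechanism. SLC7A light chains such as LAT1 and xCT reach the cell surface only when bound to a heavy chain of the SLC3A family, and they work as exchangers. SLC1A, SLC6A and SLC38A carriers use the sodium gradient to load cells with glutamate, neutral amino acids, taurine or creatine, most SLC36A carriers use protons, and the SLC43A carriers LAT3 and LAT4 let large neutral amino acids flow down their gradient. In the early embryo these carriers set how arginine, leucine and glutamine reach the epiblast and the trophectoderm, where they feed protein synthesis and mTORC1 signalling.

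The stretch around the start of a gene (250 bases before and 50 bases after the annotated start) was read from the RefSeq assembly Sscrofa11.1, the build of the data, for all 59 members and for 19511 genes in all. The windows were searched on both strands for TGATGCAA, a form of the amino acid response element, and for TGACNNNGC, a form of the antioxidant response element. Neither motif overlapped the other in the windows printed here. The former was present in 1 member (1.69%) and in 0.682% of all windows, and the latter in 11 members (18.6%) and in 12.3% of all windows. The member with TGATGCAA was SLC7A11, the cystine carrier, whose window held it on each strand. Of the 9 tested members with TGACNNNGC, SLC1A3, SLC7A6 and SLC38A4 had their highest level in COL3A1-high blastoid cells, described further on, and SLC1A4, SLC7A5, SLC36A1, SLC38A1, SLC38A5 and SLC38A8 had it in other cells. The windows of SLC1A3 and SLC7A6 are printed as examples of the motif and were chosen after the levels were seen. Capitals mark the matches, which describe letters and not bound sites. The windows lie on the plus strand at chr8:88607833-88608132 for SLC7A11, chr16:21873441-21873740 for SLC1A3 and chr6:28834547-28834846 for SLC7A6.
SLC7A11: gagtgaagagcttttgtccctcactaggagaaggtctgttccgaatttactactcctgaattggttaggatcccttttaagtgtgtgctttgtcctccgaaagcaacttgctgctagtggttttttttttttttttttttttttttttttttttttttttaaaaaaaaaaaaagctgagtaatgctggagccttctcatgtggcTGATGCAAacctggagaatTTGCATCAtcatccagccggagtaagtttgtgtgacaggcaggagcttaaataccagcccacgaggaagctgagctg
SLC1A3: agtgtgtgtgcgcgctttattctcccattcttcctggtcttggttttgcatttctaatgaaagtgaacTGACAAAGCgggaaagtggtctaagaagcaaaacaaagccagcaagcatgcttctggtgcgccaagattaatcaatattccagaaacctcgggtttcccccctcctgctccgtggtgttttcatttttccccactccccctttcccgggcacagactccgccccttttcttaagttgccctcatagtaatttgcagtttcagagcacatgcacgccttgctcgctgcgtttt
SLC7A6: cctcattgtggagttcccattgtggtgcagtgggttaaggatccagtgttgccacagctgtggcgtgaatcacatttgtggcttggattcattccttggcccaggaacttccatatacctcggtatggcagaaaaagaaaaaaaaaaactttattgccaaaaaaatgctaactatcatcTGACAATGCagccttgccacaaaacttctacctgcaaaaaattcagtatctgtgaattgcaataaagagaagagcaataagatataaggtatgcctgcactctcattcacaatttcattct

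In pESCs, the light chain SLC7A8, the heavy chain SLC3A2, the arginine carrier SLC7A3 and the glutamine exchanger SLC1A5 had the highest mean levels of the members. Values are FPKM, fragments scaled by transcript length and by the fragments mapped, so levels of different genes can be compared. SLC7A8, the light chain LAT2 for neutral amino acids, averaged 201 ± 30.8 FPKM (SD, n = 3), from 176 FPKM in the library IVFP25 over 192 in PAP25 to 235 in PA_4P7. SLC3A2, the heavy chain CD98, followed with 166 FPKM in IVFP25, 148 in PAP25 and 162 in PA_4P7. These values lay below those of SLC7A8 in every library, though by less than the SD of SLC7A8 in IVFP25. SLC7A3, a carrier of arginine and lysine, had 95.9 ± 14.1 FPKM and SLC1A5, the glutamine exchanger ASCT2, had 78.6 ± 6.09 FPKM (n = 3 each). The 3 libraries of SLC7A3 (79.8 to 106 FPKM) overlapped those of SLC1A5 (72.8 to 84.9 FPKM). A group of neighbours came next, with 54.7 ± 5.35 FPKM for SLC7A5 (LAT1), 52.4 ± 5.03 for SLC38A5 (a glutamine and histidine carrier), 51.0 ± 11.4 for SLC38A2 (a sodium-coupled carrier of small neutral amino acids) and 49.7 ± 10.6 for SLC6A8 (the creatine carrier). These means differed by less than the spread between the libraries. SLC6A6, the taurine carrier, had 23.6 ± 5.98 FPKM and SLC38A10, whose protein is found inside cells, had 20.0 ± 3.79 FPKM. In a culture, fewer cells of a type and less RNA per cell cannot be told apart, and the feeder cells were of mouse. SLC7A5 is annotated as a long non-coding RNA in this pig assembly (chr6:1545940-1574298), so its level rests on that gene model.

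Of the 59 members, 32 (54.2%) had a mean of at least 1 FPKM in pESCs, compared with 39.2% of all genes, and 12 reached 10 FPKM. The number was 30 to 32 when each library was left out in turn. SLC6A18, which serves the kidney brush border, and SLC7A13 were listed at 0 in all 3 libraries. The light chains of SLC3A2 did not all follow it, since SLC7A6 had 9.89 ± 1.66 FPKM, SLC7A7 had 2.72 ± 0.993 FPKM, SLC7A11 had 0.669 ± 0.232 FPKM and SLC7A10 had 0.254 ± 0.101 FPKM (SD, n = 3 each). SLC3A1, the other heavy chain, reached 3.72 FPKM in PAP25 but only 0.267 in PA_4P7 and 0.0387 in IVFP25. Its light chain SLC7A9 was listed at 0 in IVFP25 and had 0.0781 FPKM in PA_4P7 and 0.663 in PAP25. The heavy chain and this partner were thus both highest in PAP25. SLC38A3, a glutamine carrier of liver and brain, was also highest there, with 3.01 FPKM against 0.702 in PA_4P7 and 0.583 in IVFP25. SLC1A6, a glutamate carrier of the cerebellum, went the other way, with 2.40 FPKM in IVFP25, 1.68 in PA_4P7 and a listing at 0 in PAP25. A name that begins with IVF is at odds with a parthenogenetic origin, and the endings P25 and P7 may stand for passages. The columns could not be tied to individual samples, so the libraries were treated as 1 group and no difference between them was tested. The SD over these libraries may therefore hold differences of origin or passage.

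**Figure D1:**
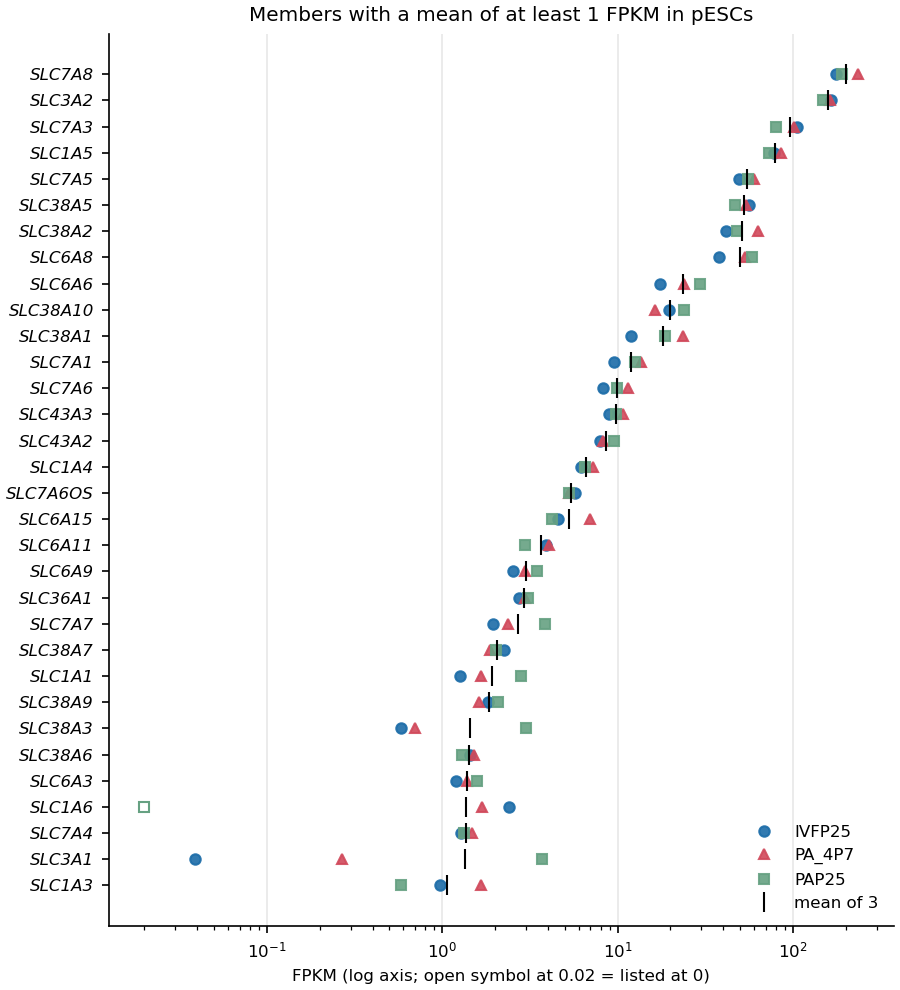
FPKM (log axis) of the 32 members with a mean of at least 1 FPKM in pESCs, with a point for each of the 3 libraries and a bar for their mean. SLC7A8 and SLC3A2 stand highest, while SLC3A1, SLC38A3 and SLC1A6 show PAP25 far from the other libraries, and the open symbol marks a value listed at 0.

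For blastoids, unique molecular identifiers (UMIs, each standing for a captured molecule) were counted per barcode. A minimum of 11223 UMIs (library 1) or 9805 UMIs (library 2) left 7369 and 8175 barcodes with median depths of 29728 and 27588 UMIs, and 9 barcode sequences occurred in both libraries. Cells were gated by POU5F1 (627 and 906 barcodes in libraries 1 and 2), GABRP (775 and 717), TP63 (837 and 829), ISG15 (241 and 272) or COL3A1 (393 and 329). A barcode past more than 1 gate, most often GABRP with TP63 (340 and 380), was placed in none. A further 3988 and 4585 barcodes (54.1% and 56.1%) passed no gate, so the gates describe a minority of the blastoid cells. Levels below are UMIs of a gene summed over a gate and library and scaled to the same total for every sum (CPM), so they compare gates for 1 gene, not genes. The POU5F1 gate had the deepest barcodes (medians of 38991 and 34556.5 UMIs) and the COL3A1 gate the shallowest (21693 and 19517), and the part of depth in the differences was not tested. Empty droplets, barcodes with 10 to 100 UMIs, show the free RNA.

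The gates were described with marker lists. The lists were chosen with earlier results of these data known, so their counts are no independent check of the gates. The gene that set a gate was left out of its list in these counts. All 10 other pluripotency markers were higher in the POU5F1 gate (background over all genes 30.4%), all 8 other mesenchymal markers in the COL3A1 gate (background 27.4%) and all 9 other tested interferon response markers in the ISG15 gate (background 10.9%). The GABRP gate was higher in 8 of 9 other amnion markers and in 10 of 11 trophectoderm markers (background 27%), with CDX2 at only 1.20 and 1.54 CPM. Amnion markers other than GABRP summed to 1828 and 1682 CPM in the GABRP gate, 770 to 830 in the TP63 gate, 618 and 553 in the ISG15 gate and 124 to 246 in the POU5F1 and COL3A1 gates. Trophectoderm markers summed to 18461 and 18339 CPM in the GABRP gate and 5333 to 9445 in the other gates, below the 12989 and 11785 of empty droplets. Of the 11 trophectoderm markers, 8 were higher and none lower in the ISG15 gate (background 10.9% and 8.7%). In the TP63 gate 6 of these 11 were higher and 2 lower (background 19.5% and 18.8%), and 6 of the 9 other amnion markers were higher and 1 lower. In the ISG15 gate 4 of those 9 amnion markers were higher and 2 lower. Of 5 tested surface ectoderm markers other than TP63, KRT15 and PERP were higher and none lower in the TP63 gate (background 19.5% and 18.8%), and 4 were higher in the GABRP gate. The list without TP63 summed to 232 and 222 CPM in the TP63 gate, 292 and 272 in the GABRP gate and 68.2 to 222 elsewhere, and KRT5 had 0.301 and 0.203 CPM and KRT15 had 1.05 and 0.486 CPM in the TP63 gate. The gate is therefore called by its gene. In the COL3A1 gate 4 of 7 tested hypoblast markers (GATA6, GATA4, SOX17 and NID2) were higher and APOA1 was lower, and the list summed to 564 and 558 CPM, the highest of the gates, although FOXA2 had no UMI there and TTR reached at most 0.137 CPM. In the same gate 3 of 6 cardiac markers (MYL7, TNNI1 and NKX2-5) were higher and none lower, with a sum of 282 and 294 CPM against 22.9 to 154 in the other gates and 279 and 193 in empty droplets. In the ISG15 gate 4 of 7 neural markers were higher and none lower (background 10.9% and 8.7%), with a sum of 306 and 309 CPM against 82.3 to 218 in the other gates and 395 and 491 in empty droplets, and PAX6 among them had 51.0 and 32.8 CPM against 2.29 to 6.17 CPM. The part of these other cell types in the carrier levels was not tested.

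Most carriers that could be tested differed between the gates. After the filter on low counts 49 members were tested, and 48 of them (98.0%) passed an adjusted p of 0.05 for at least 1 gate against the mean of the other 4, compared with 84.1% of all 17542 genes tested. The uncalled member was SLC6A13, a GABA carrier. With a change of at least 2-fold, 32 members (65.3%) were called, compared with 35.8% of all genes. Both counts include SLC43A1, which passed the filter only through the POU5F1 gate. So do the counts below of members higher or highest in that gate. The 5 comparisons share the same sums, so they are not independent of each other.

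The POU5F1 gate had the most members up and the COL3A1 gate the most members down. In the POU5F1 gate 25 members were higher and 14 lower, compared with a background over all genes of 30.4% higher and 28.5% lower, and the median log2 fold change was 0.36 over members and -0.000648 over all genes. In the COL3A1 gate 13 were higher (background 27.4%) and 24 lower (background 27%), with a median of -0.43 against -0.02 over all genes. In the GABRP gate 16 were higher (background 27%) and 14 lower (background 23.7%), and without library 1 of that gate 7 were lower. In the TP63 gate 10 were higher (background 19.5%) and 13 lower (background 18.8%), and without library 1 of that gate 5 were lower. In the ISG15 gate 9 were higher (background 10.9%) and 7 lower (background 8.7%). The ISG15 counts moved with the setting, as 5 were higher without library 2 and 15 with the gate at 0.5 of the percentile in place of 0.25, while 3 or 2 were lower without library 1 or 2 and 3 with that gate. By level, 20 of the 49 members (40.8%) were highest in the POU5F1 gate, compared with 33.2% of all genes tested, and 16 of them (32.7%, compared with 24.1%) had both libraries above every other sum. The COL3A1 gate was highest for 12 members (24.5%, compared with 25.9% of all genes), all without overlap (compared with 18.4%). The GABRP gate was highest for 8 members (16.3%, compared with 13.6%), the TP63 gate for 7 (14.3%, compared with 18.5%) and the ISG15 gate for 2 (4.08%, compared with 8.68%). Without overlap these were 7 members for the GABRP gate (14.3%, compared with 8.63%), 3 for the TP63 gate (6.12%, compared with 9.3%) and 0 for the ISG15 gate (compared with 3.03%). These levels are CPM alone. The fold changes were also scaled by TMM factors, from 0.904 (GABRP gate, library 2) to 1.08 (POU5F1 gate, library 1). The gate of the highest level was thus not always that of the largest fold change. SLC7A11 was highest in the TP63 gate by level, but its log2 fold change was 0.97 there and 1.06 in the GABRP gate.

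**Figure D2:**
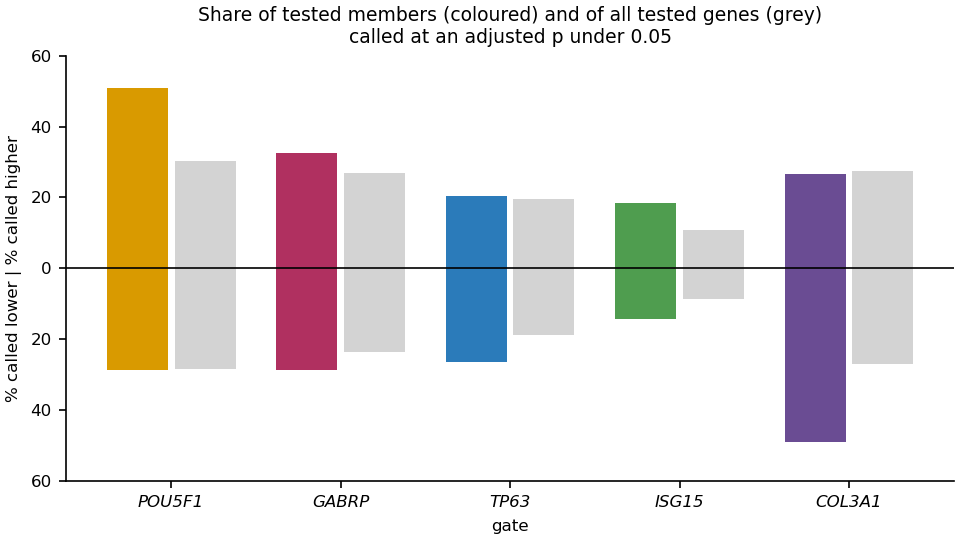
Percentage of the 49 tested members (coloured bars) and of all 17542 tested genes (grey bars) called higher (above 0) or lower (below 0) in each gate at an adjusted p under 0.05. The share of members exceeds the grey bar most for higher calls in the POU5F1 gate and for lower calls in the COL3A1 gate.

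**Figure D3:**
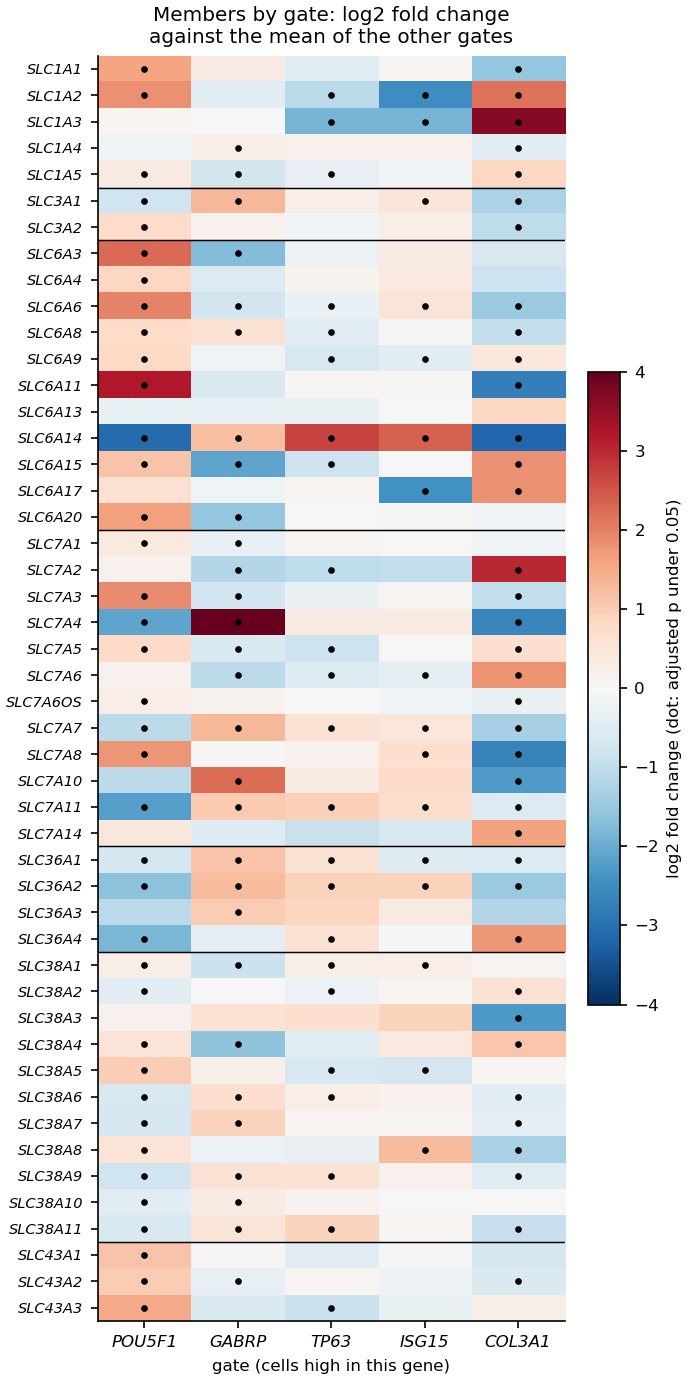
Log2 fold change of 48 of the 49 tested members in each gate against the mean of the other gates (colour, ending at 4 in size), with a dot for an adjusted p under 0.05 and lines between families. SLC7A4 is the darkest red in the GABRP column and SLC1A3 in the COL3A1 column, while SLC43A2 and SLC43A3 are red in the POU5F1 column. SLC43A1 passed the filter on low counts only through the POU5F1 gate.

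Among the heteromeric carriers, LAT2 and the heavy chain CD98 were high in the POU5F1 gate and low in the COL3A1 gate. SLC7A8 (chr7:75854700-75921931) stood at 284 and 308 CPM in the POU5F1 gate, 147 and 157 in the ISG15 gate, 112 and 127 in the TP63 gate, 90.4 and 102 in the GABRP gate and 21.3 and 26.4 in the COL3A1 gate. The POU5F1 and COL3A1 gates overlapped with no other gate. The log2 fold change was 1.77 ± 0.07 (SE, adjusted p = 6.4e-10 by edgeR's quasi-likelihood test) for the POU5F1 gate and -2.66 ± 0.11 (adjusted p = 2.27e-10) for the COL3A1 gate. SLC3A2 (chr2:8892071-8919070) had 294 and 350 CPM in the POU5F1 gate, 180 to 249 in the GABRP, TP63 and ISG15 gates and 105 and 121 in the COL3A1 gate. Its log2 fold changes were 0.73 ± 0.09 (adjusted p = 1.37e-05) for the POU5F1 gate and -1.03 ± 0.11 (adjusted p = 3.06e-06) for the COL3A1 gate. Empty droplets held SLC3A2 at 343 and 363 CPM, as high as the highest gate, and SLC7A8 at 104 and 108 CPM. SLC7A5, the other main exchanger for leucine, had 20.3 and 24.9 CPM in the POU5F1 gate and 15.6 and 25.3 in the COL3A1 gate, which overlapped. Both gates were higher than the mean of the others, by 0.77 ± 0.16 (adjusted p = 0.00105) and 0.69 ± 0.20 (adjusted p = 0.0112) on the log2 scale.

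The remaining light chains went to other gates. SLC7A6, which exchanges arginine for glutamine, was highest in the COL3A1 gate with 34.4 and 37.0 CPM, against 6.37 to 15.7 in all other sums (log2 fold change 1.79 ± 0.08, adjusted p = 6.25e-10). Its 3′ end (chr6:28834797-28876154) overlaps SLC7A6OS (chr6:28874220-28883572) on the opposite strand. SLC7A6OS itself had 11.9 and 14.0 CPM in the COL3A1 gate and was lower there by 0.29 ± 0.10 on the log2 scale (adjusted p = 0.0235). SLC7A7, the related exchanger of epithelia, had 58.2 and 58.0 CPM in the GABRP gate, 38.5 to 48.5 in the TP63 and ISG15 gates and 13 to 19.1 in the POU5F1 and COL3A1 gates. It was higher in the GABRP gate by 1.34 ± 0.08 (adjusted p = 1.39e-08). SLC3A1, the heavy chain of the kidney cystine carrier, was highest in the same gate, with 16.9 and 18.4 CPM in the GABRP gate, 11.0 to 13.4 in the TP63 and ISG15 gates and 3.02 to 7.03 in the POU5F1 and COL3A1 gates (log2 fold change 1.31 ± 0.12 in the GABRP gate, adjusted p = 1.31e-06). It was also called higher in the ISG15 gate (0.47 ± 0.15). It was lower in the POU5F1 gate (-0.79 ± 0.14, adjusted p = 0.000296). It was also lower in the COL3A1 gate (-1.25 ± 0.19, adjusted p = 0.0001), at -1.87 without library 1 of that gate. Empty droplets had 17.1 and 13.7 CPM of it, close to the GABRP gate. Its light chains SLC7A9 (at most 0.417 CPM in any sum) and SLC7A13 (at most 0.275 CPM) were under the filter, so no partner of this heavy chain could be tested. SLC7A10, a carrier of small neutral amino acids such as serine, had 1.85 and 3.61 CPM in the GABRP gate and 0.137 to 1.60 elsewhere. It was higher in the GABRP gate by 2.24 ± 0.32 (adjusted p = 6.71e-05), and its lower call in the COL3A1 gate rested on 4 UMIs and was lost without library 1 (adjusted p = 0.060) or library 2 (adjusted p = 0.095).

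SLC7A11, which brings in cystine for glutathione and whose start region is printed above, was low in the POU5F1 gate. Its levels were 10.8 and 12.1 CPM there, 19.5 and 35.5 in the COL3A1 gate, 53.8 and 65.8 in the GABRP gate, 58.5 and 71.3 in the TP63 gate and 54.5 and 55.1 in the ISG15 gate. The GABRP gate overlapped both the TP63 and the ISG15 gate, and the POU5F1 gate lay below all others. The log2 fold change was -2.20 ± 0.17 (adjusted p = 1.8e-07) in the POU5F1 gate, and 1.06 ± 0.13 (adjusted p = 2.06e-05), 0.97 ± 0.13 (adjusted p = 8.74e-05) and 0.72 ± 0.15 (adjusted p = 0.00454) in the GABRP, TP63 and ISG15 gates. Empty droplets held 18.3 and 21.3 CPM, above the POU5F1 gate.

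The cationic carriers divided between gates. SLC7A3 (chrX:56937081-56942331) had 62.5 and 76.7 CPM in the POU5F1 gate and 10.1 to 27.1 CPM in all other sums, with 26.2 and 27.7 CPM in empty droplets. It was higher in the POU5F1 gate by 1.89 ± 0.14 on the log2 scale (adjusted p = 1.11e-07). SLC7A1, the ubiquitous arginine carrier, varied little, from 16.4 to 29.6 CPM, and was highest in the POU5F1 gate (0.38 ± 0.07, adjusted p = 0.000409). SLC7A2, an arginine carrier of liver and macrophages, had 3.85 and 4.67 CPM in the COL3A1 gate and 0.321 to 1.18 elsewhere, higher by 3.02 ± 0.28 (adjusted p = 8.16e-07). Its lower calls in the GABRP gate (-1.17 ± 0.36, adjusted p = 0.0153) and the TP63 gate (-1.02 ± 0.34, adjusted p = 0.0305) were lost without either library of those gates (adjusted p = 0.088 and 0.085, and 0.14 and 0.15). SLC7A14, a related lysosomal protein, had 0.937 and 1.51 CPM in the COL3A1 gate against 0.162 to 0.798 elsewhere (log2 fold change 1.60 ± 0.45, adjusted p = 0.00872), a call that was lost without library 2 of that gate (adjusted p = 0.13).

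SLC7A4 had the largest fold change of all members. The protein resembles the cationic carriers, but transport by it has not been established. It stood at 118 and 125 CPM in the GABRP gate, 14.8 and 19.4 in the TP63 gate, 11.4 and 21.6 in the ISG15 gate, 3.65 and 5.36 in the POU5F1 gate and 2.71 and 3.71 in the COL3A1 gate. The GABRP gate stood alone, the TP63 and ISG15 gates overlapped, and the COL3A1 gate lay at the bottom, overlapping the POU5F1 gate. The log2 fold change was 4.10 ± 0.14 in the GABRP gate (adjusted p = 1.18e-10), -2.10 ± 0.23 in the POU5F1 gate (adjusted p = 4.64e-06) and -2.65 ± 0.31 in the COL3A1 gate (adjusted p = 8.91e-06). Empty droplets held 32.3 and 24.7 CPM, above every gate but GABRP, and the part of free RNA in those gates was not tested. The gene lies at chr14:50631693-50638381 on the minus strand, and it had 1.36 ± 0.0971 FPKM (SD, n = 3) in pESCs.

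**Figure D4:**
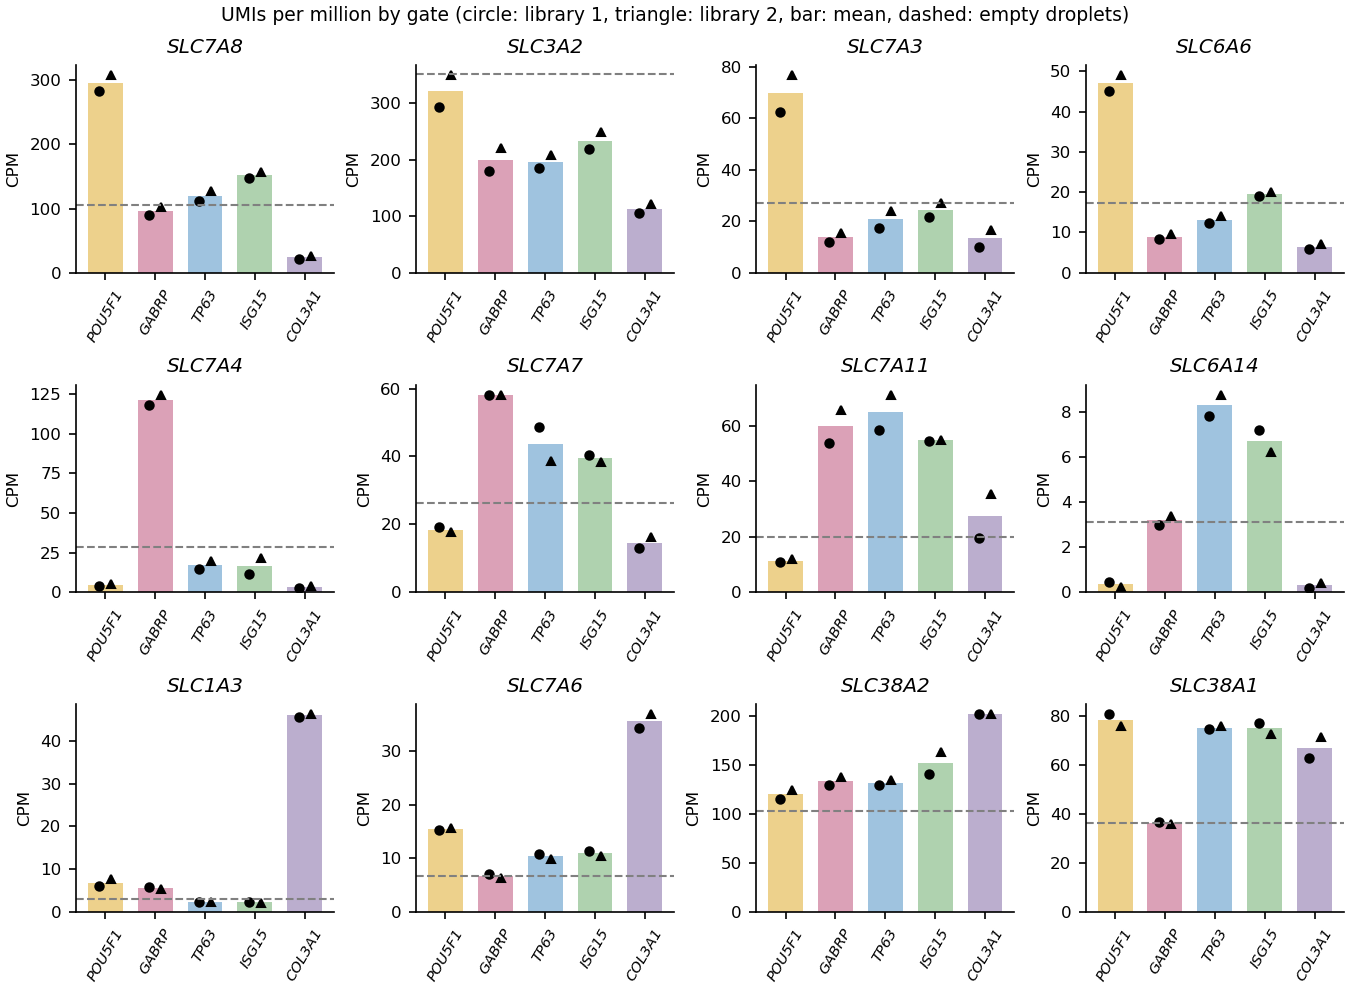
CPM of 12 members by gate, with a bar for the mean, a circle for library 1, a triangle for library 2 and a dashed line for the mean of empty droplets. SLC7A8, SLC7A3 and SLC6A6 peak in the POU5F1 gate, SLC7A4 in the GABRP gate and SLC1A3, SLC7A6 and SLC38A2 in the COL3A1 gate.

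Of the 5 tested SLC1A members, 3 were higher and none lower in the POU5F1 gate (background 30.4% and 28.5%), and 3 were higher and 2 lower in the COL3A1 gate (background 27.4% and 27%). SLC1A3, the glial glutamate carrier GLAST (chr16:21873691-21965315), had 45.7 and 46.3 CPM in the COL3A1 gate, 6.01 and 7.61 in the POU5F1 gate, 5.75 and 5.29 in the GABRP gate and 2.03 to 2.36 in the TP63 and ISG15 gates. Its log2 fold change in the COL3A1 gate was 3.65 ± 0.10 (adjusted p = 8.72e-12), and it was lower in the TP63 gate (-1.85 ± 0.15, adjusted p = 1.04e-06) and in the ISG15 gate (-1.87 ± 0.19, adjusted p = 1.92e-05). SLC1A2, the main glutamate carrier of brain, had 3.12 and 3.02 CPM in the COL3A1 gate and 2.58 and 2.85 in the POU5F1 gate, against 0.107 to 0.903 elsewhere. It was higher in both, by 2.17 ± 0.33 (adjusted p = 0.000105) and 1.81 ± 0.27 (adjusted p = 7.77e-05). Its lower calls rested on few molecules: the ISG15 gate held 4 UMIs and lost the call without library 2 (adjusted p = 0.14), and the TP63 gate lost it without library 1 (adjusted p = 0.32). SLC1A1, the glutamate carrier of kidney and neurons, had 9.16 and 8.30 CPM in the POU5F1 gate and 0.833 to 4.38 elsewhere (log2 fold change 1.57 ± 0.18, adjusted p = 6.86e-06). It was lowest in the COL3A1 gate (-1.55 ± 0.33, adjusted p = 0.00131), a call that was lost without library 1 of that gate (adjusted p = 0.060) and stood at -2.33 without library 2. Of the neutral exchangers, SLC1A5 was highest in the COL3A1 gate with 74.9 and 80.9 CPM, followed by 66.2 and 63.0 in the POU5F1 gate, and lowest in the GABRP gate with 26.6 and 33.2. SLC1A4, which exchanges serine and alanine, stayed between 12.7 and 21.6 CPM in every sum.

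In the SLC6A family, 9 of 12 tested members were higher in the POU5F1 gate and 1 was lower (background 30.4% and 28.5%). SLC6A6, the taurine carrier (chr13:70094073-70173581), had 45.2 and 49.1 CPM there and 5.94 to 20.0 CPM in the other sums, higher by 1.98 ± 0.08 on the log2 scale (adjusted p = 6.65e-10). SLC6A8, the creatine carrier, had 27.1 and 28.3 CPM in the POU5F1 gate, 20.2 and 23.5 in the GABRP gate and 8.75 to 18.6 in the other gates. It was higher in both the POU5F1 gate (0.74 ± 0.08, adjusted p = 6.52e-06) and the GABRP gate (0.60 ± 0.09, adjusted p = 8.32e-05). Empty droplets held 21.3 and 33.3 CPM of it, about the level of these gates. Other SLC6A carriers were detected at low counts in the POU5F1 gate. SLC6A11, a GABA carrier, had 4.49 and 6.02 CPM in the POU5F1 gate and at most 0.962 in the other sums (log2 fold change 3.20 ± 0.25, adjusted p = 2.08e-07), and the COL3A1 gate held only 3 UMIs of it. SLC6A3, the dopamine carrier, had 1.98 and 1.32 CPM in the POU5F1 gate and 0.136 to 0.621 elsewhere (2.27 ± 0.31, adjusted p = 3.39e-05, and 1.48 with the gate at 0.1 of the percentile), and its lower call in the GABRP gate rested on 7 UMIs and was lost without either library of that gate (adjusted p = 0.076 and 0.075). SLC6A20, a proline carrier, had 1.22 and 0.869 CPM in the POU5F1 gate against at most 0.535 elsewhere (1.63 ± 0.39, adjusted p = 0.00297), and its lower call in the GABRP gate rested on 7 UMIs and was lost without library 1 (-0.66, adjusted p = 0.45) and stood at -3.32 without library 2.

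SLC6A14, a carrier of neutral and cationic amino acids in mucosal epithelia, was low in the POU5F1 gate. It had 7.82 and 8.76 CPM in the TP63 gate, 7.20 and 6.20 in the ISG15 gate, 2.97 and 3.39 in the GABRP gate, 0.456 and 0.240 in the POU5F1 gate and 0.208 and 0.412 in the COL3A1 gate. Empty droplets held 3.66 and 2.56 CPM of SLC6A14, about the level of the GABRP gate. The TP63 gate lay above all others and the POU5F1 and COL3A1 gates overlapped. It was higher in the TP63 gate by 2.70 ± 0.17 (adjusted p = 1.31e-07), in the ISG15 gate by 2.37 ± 0.21 (adjusted p = 5.6e-06) and in the GABRP gate by 1.21 ± 0.20 (adjusted p = 0.000253), the last lost where the gate was set at 0.5 of the percentile in place of 0.25 (0.42, adjusted p = 0.37), and at 1.93 without doublets. With the gate at 0.5 of the percentile the ISG15 value was 3.87, and with it at 0.1 the GABRP and ISG15 values were 2.02 and 1.48. It was lower in the POU5F1 gate by 3.09 ± 0.35 on the log2 scale (adjusted p = 7.71e-06) and in the COL3A1 gate, where 5 UMIs were counted. The gene lies at chrX:95482494-95507200, and in pESCs it was listed at 0 in 2 libraries. SLC6A15, a carrier of branched chain amino acids and proline, had 12.3 and 13.3 CPM in the COL3A1 gate and 8.10 and 10.5 in the POU5F1 gate, against 1.16 to 5.03 elsewhere. Its log2 fold changes were 1.82 ± 0.16 (adjusted p = 5.04e-07), 1.13 ± 0.14 (adjusted p = 1.2e-05) and, in the GABRP gate, -2.11 ± 0.20 (adjusted p = 1.48e-06), and the POU5F1 value was 0.73 with the gate at 0.1 of the percentile. SLC6A17, a vesicular carrier of neurons, had 1.04 and 1.51 CPM in the COL3A1 gate and at most 0.719 elsewhere (1.83 ± 0.44, adjusted p = 0.00348). That call was lost without library 2 (adjusted p = 0.056), and the ISG15 gate held 2 UMIs of it, with a lower call that was lost without either library (adjusted p = 0.17 and 0.22).

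Of the 4 SLC36A carriers, none was higher and 3 were lower in the POU5F1 gate (background 30.4% and 28.5%). SLC36A1, which exports amino acids from lysosomes, had 20.6 and 19.4 CPM in the GABRP gate and 17.1 and 17.3 in the TP63 gate, against 8.25 to 8.88 in all other sums. It was higher by 1.14 ± 0.07 (adjusted p = 4.08e-08) and 0.62 ± 0.07 (adjusted p = 3.19e-05). SLC36A4, a carrier of proline and tryptophan, was highest in the COL3A1 gate with 11.5 and 8.93 CPM and lowest in the POU5F1 gate with 1.44 and 1.59 (1.74 ± 0.17, adjusted p = 1.48e-06, and -1.83 ± 0.19, adjusted p = 2.95e-06). SLC36A2 and SLC36A3 overlap on the same strand (chr16:71661946-71689464 and chr16:71689211-71732634), so how UMIs were divided between them is uncertain. SLC36A2 had 2.62 and 3.48 CPM in the GABRP gate, 1.86 to 3.64 in the TP63 and ISG15 gates and 0.550 to 0.833 in the POU5F1 and COL3A1 gates, and SLC36A3 at most 0.932 in any sum. In the GABRP gate SLC36A2 was higher by 1.27 ± 0.23 (adjusted p = 0.000452) and SLC36A3 by 1.03 ± 0.38 (adjusted p = 0.037), the latter lost without library 1 (adjusted p = 0.14) or 2 (adjusted p = 0.16). SLC36A2 was lower in the POU5F1 gate (-1.64 ± 0.29, adjusted p = 0.000307) and in the COL3A1 gate (-1.50 ± 0.40, adjusted p = 0.00639), the latter lost without library 2 (adjusted p = 0.063).

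Of the 11 members of the SLC38A family, carriers of glutamine and alanine among others, 4 were higher and 6 lower in the POU5F1 gate (background 30.4% and 28.5%), and 2 were higher and 6 lower in the COL3A1 gate (background 27.4% and 27%). SLC38A2 had 202 CPM in each library of the COL3A1 gate, 116 and 125 in the POU5F1 gate and 129 to 163 elsewhere (0.61 ± 0.06 in the COL3A1 gate, adjusted p = 2.14e-06). SLC38A1, the carrier that loads neurons with glutamine, had 36.7 and 35.8 CPM in the GABRP gate, about the level in empty droplets (33.5 and 39.2), and 62.8 to 80.9 in the other sums (-0.85 ± 0.06, adjusted p = 8.56e-08). SLC38A4, which also accepts cationic amino acids, was likewise low in the GABRP gate, with 0.578 and 0.813 CPM (-1.62 ± 0.25, adjusted p = 0.000138, and -2.46 with the gate at 0.5 of the percentile), and highest in the COL3A1 gate, with 2.92 and 4.12 (1.12 ± 0.23, adjusted p = 0.00124). Both lysosomal members described here were called lower in the COL3A1 gate, SLC38A9 with 40.1 and 42.5 CPM (-0.50 ± 0.07) and SLC38A7 with 8.75 and 7.15 CPM (-0.40 ± 0.12). They were also low in the POU5F1 gate. SLC38A9, the arginine sensor of mTORC1, had 35.9 and 38.7 CPM there and 79.6 and 75.7 in the TP63 gate (-0.81 ± 0.06, adjusted p = 1.27e-07, and 0.56 ± 0.05, adjusted p = 4.65e-06). It was also higher in the GABRP gate, with 67.3 and 69.3 CPM (0.58 ± 0.05, adjusted p = 1.66e-06). SLC38A7, a lysosomal glutamine exporter, had 7.15 and 7.79 CPM in the POU5F1 gate and 15.5 and 14.9 in the GABRP gate (-0.66 ± 0.09, adjusted p = 4.8e-05, and 0.91 ± 0.08, adjusted p = 1.55e-06). SLC38A5 was higher in the POU5F1 gate with 25.5 and 35.3 CPM (1.00 ± 0.14, adjusted p = 3.29e-05), against 10.5 to 20.6 elsewhere and 21.8 to 23.8 in empty droplets. At low counts, SLC38A8, a glutamine carrier of the eye, had 3.97 and 2.57 CPM in the ISG15 gate, overlapping the POU5F1 gate at 2.66 and 1.98 (1.27 ± 0.26, adjusted p = 0.00381), lost without library 1 (adjusted p = 0.11). Its lower call in the COL3A1 gate (0.833 and 0.687 CPM) was lost without library 1 (adjusted p = 0.058) or library 2 (adjusted p = 0.065). SLC38A3 had 3 UMIs in the COL3A1 gate and 0.599 to 1.37 CPM in the others.

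SLC43A2 and SLC43A3 were higher in the POU5F1 gate (background 30.4%). SLC43A1 was called higher too, but it passed the filter on low counts only through that gate, so its call is no separate evidence. SLC43A2, the leucine and phenylalanine carrier LAT4, had 11.5 and 9.86 CPM there and 3.57 to 6.50 elsewhere (1.00 ± 0.11, adjusted p = 4.16e-06). SLC43A3, known as a carrier of purine bases, had 6.01 and 6.41 CPM against 1.18 to 3.54 (1.52 ± 0.23, adjusted p = 7.59e-05). SLC43A1, LAT3, had 0.798 and 0.659 CPM against 0.124 to 0.535 (1.15 ± 0.38, adjusted p = 0.0209), a call that was lost without library 1 (adjusted p = 0.13), without library 2 (adjusted p = 0.075) and with DESeq2 (adjusted p = 0.17).

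The 10 members under the filter were SLC1A6, SLC1A7, SLC6A2, SLC6A5, SLC6A7, SLC6A12, SLC6A18, SLC6A19, SLC7A9 and SLC7A13. They held from 4 UMIs (SLC6A7 and SLC6A18) to 40 UMIs (SLC7A9) over all gates, too few to compare. They include carriers of noradrenaline (SLC6A2), glycine (SLC6A5) and proline (SLC6A7) in neurons and of neutral amino acids in gut and kidney (SLC6A19).

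Genes that use, sense or respond to amino acids were counted in the same fit. In the cystine and glutathione list 10 of 11 genes were lower in the COL3A1 gate (background 27%), and 7 were higher in each of the TP63 and ISG15 gates (backgrounds 19.5% and 10.9%), while in the POU5F1 gate 4 were higher and 5 lower (background 30.4% and 28.5%). GCLC, which makes the glutathione precursor, had 161 and 151 CPM in the GABRP gate and 19.9 and 28.9 in the COL3A1 gate (-1.82 ± 0.11, adjusted p = 1.27e-08). NQO1, an antioxidant enzyme, was lower in the POU5F1 gate, with 46.5 and 42 CPM (-1.37 ± 0.06, adjusted p = 2.34e-09). SLC7A11 was low in both of these gates too, as given above. Of 24 genes of amino acid sensing by mTORC1, 15 were higher and 2 lower in the GABRP gate (background 27% and 23.7%), and the median log2 fold change of the list there was 0.27. In the COL3A1 gate 3 were higher and 10 lower (background 27.4% and 27%), and in the POU5F1 gate 6 were higher and 10 lower (background 30.4% and 28.5%). RRAGD, a Rag GTPase of that list, had 50.1 and 54.6 CPM in the POU5F1 gate and 4.69 and 4.26 in the COL3A1 gate (-2.40 ± 0.13 in the latter, adjusted p = 5.69e-09). Of 8 tested arginine and polyamine genes, 6 were higher and 2 lower in the POU5F1 gate (background 30.4% and 28.5%). Among the higher ones were ODC1, the entry enzyme of polyamine synthesis (285 and 316 CPM, 0.82 ± 0.07, adjusted p = 4.56e-07), and ARG2, a mitochondrial arginase (157 and 155 CPM, 1.04 ± 0.04, adjusted p = 6.86e-10). SLC7A3, the arginine carrier, was highest in the same gate.

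Of 9 tested genes for branched chain amino acids, tryptophan and methionine, 5 were higher and none lower in the POU5F1 gate (background 30.4% and 28.5%), with BCAT1, which transaminates leucine, at 404 and 407 CPM against 58.9 to 168 elsewhere (1.69 ± 0.09, adjusted p = 8.98e-09). In the amino acid response list 8 of 14 genes were higher and 4 lower in the COL3A1 gate (background 27.4% and 27%), 2 were higher and 7 lower in the POU5F1 gate (background 30.4% and 28.5%), and 6 were higher and 2 lower in the GABRP gate (background 27% and 23.7%). The libraries of the COL3A1 gate lay apart for some of these genes, with 2.08 and 6.87 CPM of TRIB3 and 15.7 and 31.7 CPM of CHAC1. The lists were not counted without a library. VLDLR, a lipoprotein receptor, had 11.1 CPM in each library of the COL3A1 gate (2.33 ± 0.15, adjusted p = 2.3e-08), and STC2, a secreted glycoprotein, was lower there at 1.46 and 1.10 CPM (-2.26 ± 0.28, adjusted p = 1.48e-05). In the serine, glycine and one-carbon list 7 of 11 were lower and 2 higher in the GABRP gate (background 23.7% and 27%), 6 were lower and 4 higher in the POU5F1 gate (background 28.5% and 30.4%), and 3 were lower and 4 higher in the COL3A1 gate (background 27% and 27.4%). MTHFD2, the mitochondrial folate enzyme, had 89.5 and 86.4 CPM in the COL3A1 gate and 14.2 to 18.7 elsewhere (2.49 ± 0.06, adjusted p = 3.98e-12), while GLDC, which cleaves glycine, had 7.91 and 7.01 CPM there (-2.11 ± 0.13, adjusted p = 1.98e-08). Of the 9 glutamine and glutamate enzymes, 3 were higher and 1 lower in the GABRP gate, near the background of 27% and 23.7%. In that gate GPT2, a mitochondrial alanine transaminase, stood at 61.6 and 59.99 CPM against 11.2 to 20.9 elsewhere (2.22 ± 0.05, adjusted p = 6.63e-12). Of 14 other carriers of amino acids and peptides, 7 were lower and 1 higher in the COL3A1 gate (background 27% and 27.4%). SLC16A10, an exporter of aromatic amino acids, had 209 and 175 CPM in the GABRP gate against 25.4 to 92.8 elsewhere (2.12 ± 0.08, adjusted p = 2.81e-10), and SLC25A22, the mitochondrial glutamate carrier, had 47.2 and 55.6 CPM in the POU5F1 gate against 11.6 to 19.1 elsewhere (1.66 ± 0.08, adjusted p = 3.27e-09).

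**Figure D5:**
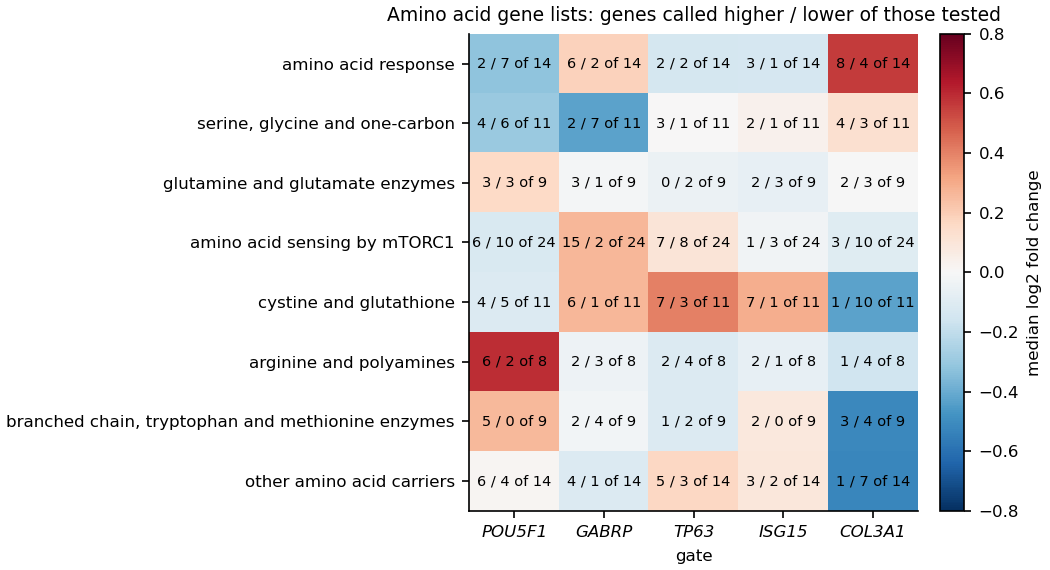
Genes called higher / lower of those tested in 8 lists of amino acid genes (rows) by gate (columns), with colour for the median log2 fold change of the list. The glutathione list is blue in the COL3A1 column, with 10 of 11 genes lower, and the arginine and polyamine list is red in the POU5F1 column.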

How the data were processed

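Processed data of 3 pESC libraries and 2 blastoid libraries were used, and each kind was treated as 1 condition. The names of the pESC libraries (IVFP25, PA_4P7 and PAP25) may mark different origins and passages. For pESCs the authors trimmed reads with Trim Galore 0.6.4, aligned them to susScr11 with HISAT2 2.2.1 and computed FPKM with StringTie 2.2.1. The deposited FPKM are per transcript, depth is not given, and transcripts of a symbol were summed here. For blastoids the deposited counts are UMIs of every barcode, counted by the authors with Cell Ranger 7.1.0 on susScr11. The labels and the paper name different kits and sequencers.

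A barcode passed a gate with at least 2 UMIs of the gate gene and at least 0.25 times the level of the 99th percentile of its library, in UMIs per 10000. No gate gene is a member. UMIs were summed per library and gate (10 sums of 7276105 to 33370343 UMIs), filtered by filterByExpr, scaled by TMM and tested by the quasi-likelihood test of edgeR 4.0.16 in R 4.3.3, each gate against the mean of the other 4, with Benjamini-Hochberg adjustment over 17542 genes. The script was tested on simulated data. No doublets were removed in the results given, since Scrublet (scanpy 1.11.5) marked 1 barcode in library 1 and 0 in library 2 by its own threshold. The alternative without doublets left out the 434 and 535 barcodes with the highest Scrublet scores, a number set by an assumed rate of 0.8% per 1000 barcodes. Sums of a library come from the same preparation, which pairs them, and their deviations from the gate means correlated at 0.0594 to 0.195 over 17542 genes. Alternatives were DESeq2 1.42.0, other size factors, no filter, other gates, the library as a block and each library left out.

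Named are members called with a change of at least 2-fold in any gate, the 10 highest in pESCs, the heavy and light chains, members under the filter, and at most 4 genes of each related list. Of the members, 1 is counted but not reported by name here. Members and lists were chosen with earlier results of these data known. Intervals of counting error are not given, and the number of libraries limits the precision.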

Additional observations from a re-analysis of the deposited data

How the results depend on the processing

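Of 66 calls of a member in a gate with a change of at least 2-fold (32 genes), 66 remained with relative log expression size factors, with no filter on low counts and with the library as a replicate block, 65 with a mitochondrial filter or without the barcodes of highest doublet score, 63 with barcodes of several gates kept, 60 with the gate at 0.1 of the percentile, 57 with DESeq2, and 56 with the gate at a value of 0.5 of the percentile. No direction reversed. When each library of the gate was left out, 105 of 132 calls remained, and the lost ones are named in the report except for those of a member not reported here. Apart from that member, the calls lost under the other settings were of SLC1A2, SLC6A3, SLC6A11, SLC6A14, SLC6A17, SLC6A20, SLC7A2, SLC7A10, SLC7A14, SLC36A2, SLC36A3, SLC38A3, SLC38A8 and SLC43A1, and the cause was not tested. With the replicate block, which uses the pairing by library, 25 members were higher and 16 lower in the POU5F1 gate, and no count moved by over 1.5 times.

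Counts that moved by over 1.5 times were these. Members lower in the GABRP gate numbered 9 with DESeq2, against 14, and 7 to 11 without a library. Members lower in the TP63 gate numbered 5 to 12 without a library, against 13. Members higher in the ISG15 gate numbered 15 with the gate at 0.5 of the percentile, against 9, and 5 to 7 without a library. Members lower in the ISG15 gate numbered 4 with DESeq2, 3 with the gate at 0.5 of the percentile, 4 with the gate at 0.1 of it, 3 with barcodes of several gates kept and 2 to 3 without a library, against 7. In pESCs, 31 members had at least 1 FPKM by the highest transcript alone, and 45 had at least 0.1 FPKM. Leaving out a library leaves a gate with 1 sum, which is assumed to vary like the others. The genes that lost a call without a library were, except for SLC1A1, under 5 CPM in every sum, and the part of depth was not tested.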
